A study of Mus musculus with 16 samples.

Results

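Cells carrying the label Embryo proper mesothelium were examined in chimeric mouse embryos built from *Stat3* null embryonic stem cells (ESCs) and WT host blastocysts. Members were all cells given this label by the authors' transfer from an atlas of mouse gastrulation and early organogenesis, that passed their RNA quality filter and were not called doublets. Null cells came from the tdTomato-positive gate, and WT cells from the tdTomato-negative gate if they held no tdTomato UMI (a unique molecular identifier, counting 1 captured RNA molecule). The rule kept 450 of 37841 analysed cells. None of the 458 cells with the label was a doublet call (0 cells), and 8 of the WT gate were dropped for holding tdTomato UMIs. The members comprised 185 null and 265 WT cells, and 180 of the null cells held a tdTomato UMI. They came from 12 of 16 libraries, with 0 cells at E7.5, 113 at E8.5 and 337 at E9.5.

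The null ESCs carried H2B-tdTomato, were of CD1 background and were grown from picked colonies, with the number of lines injected not given in the sources used here, and the host embryos were CD1 with intact *Stat3*. Whole chimeras were dissociated and sorted on tdTomato, and each gate was profiled with 10x 3′ v3 chemistry. The null and WT cells of a chimera therefore shared 1 embryo and differed in the deletion, the reporter, the ESC culture history and the individual alleles of an outbred stock, and these cannot be told apart. There were 2 libraries per genotype at E7.5 and E8.5 and 4 at E9.5. Only 2 chimeric embryos were dissected at E9.5, fewer than its libraries. Some E9.5 libraries of the same genotype must therefore share an embryo. At E9.5 each n counts libraries and not embryos. The SDs and p-values measure the spread between libraries, which may be technical, and not the spread between embryos. Libraries are named A to D within a group, as names only.

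Mesothelium is the epithelial sheet that covers the organs and walls of the body cavities, and it arises from lateral plate mesoderm. *Wt1*, a zinc finger transcription factor, and *Upk3b*, a uroplakin, are widely used to mark it, and mature mesothelium also makes mesothelin (*Msln*). Its splanchnic layer covers the gut, heart and yolk sac, and the mesoderm around the gut is known for the transcription factors *Foxf1*, *Nkx2-3* and *Hlx*. The authors set the label by RNA similarity to atlas cells, over genes that vary most in the atlas. Imprinted, haemoglobin and some other gene classes were removed beforehand. Since the label itself rests on RNA, the levels below describe the labelled cells and were not tested against other labels.

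The 2 genes that mark the label were found at modest levels. At E9.5 *Wt1* reached 29.1 CPM (the UMIs of a gene per 1000000 UMIs of the labelled cells). Among 44 labels with at least 100 cells this was below Epicardium at 80.8, Pharyngeal mesoderm at 51.5 and Kidney primordium at 37.2. *Upk3b* reached 14.02, at rank 8, against 264 in yolk sac (YS) mesothelium and 102 in Epicardium. *Msln* had 0 UMIs, *Upk1b* had 4, *Muc16* had 1 and *Gpm6a* had 10 in the 337 cells. *Msln* and *Muc16* were scarce in all 44 labels, at most 1.54 and 0.132 CPM, so they do not tell the labels apart here. The median of the other labels was 1.15 CPM for *Wt1* and 0.470 for *Upk3b*, both lower than in these cells. *Bnc1* (10.8 against 0.470), *Lrrn4* (5.84 against 0.468) and *Krt19* (37.8 against 2.35) also stood above that median, and *Gpm6a* below it (0.871 against 2.23). Of the 12 mesothelial markers examined, 2 were at 0 in all E9.5 WT libraries (*Upk1b*, *Msln*), 1 in all E9.5 null libraries (*Msln*) and 3 at E8.5 (*Upk1b*, *Msln*, *Gpm6a*). The summed level of the 12, a large part of it the epithelial keratins *Krt8* and *Krt18*, ranged from 585 to 864 CPM in E9.5 WT and from 593 to 836 in E9.5 null libraries. The data thus met the label only in part, and the cells are called mesothelium-labelled here.

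The leading genes were other than the naming markers. Genes of at least 20 CPM were ordered by fold over the mean of the other labels. To that mean 1 CPM was added, which lowers the fold of genes that are rare elsewhere. At E9.5 the first 6 were *Saa2* (15.4-fold), *Saa1* (14.8), the orphan receptor *Gpr50* (14.6), the cystatin *Cst9* (14.1), *Nkx2-3* (13.04) and *Hlx* (12.2). These levels pooled null and WT cells. *Cst9*, at 20.2 CPM, stood at 17.9, 5.51, 18.6 and 9.65 in WT and at 58.7, 28.3, 14.4 and 10.5 in null libraries. No WT library alone reached the limit of 20 CPM for it. *Nkx2-3* stood at 148 CPM, close to 139 in YS mesothelium. *Hlx* stood at 67.0, close to 59.4 in Epicardium. *Foxf1*, at 219, was second to first heart field cardiopharyngeal progenitors at 341, and *Foxf2*, at 30.5, was first of the 44. *Gata4*, a cardiac and epicardial factor at 117 in Epicardium, was at 4.18. At E8.5 *Hlx* came first by this fold (82.5 CPM, 15.99-fold) and was highest in these cells among 34 labels, *Foxf1* stood at 227 and *Nkx2-3* at 41.9, while *Wt1* was at 5.23 and *Upk3b* at 4.83.

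Detection per cell gave the same picture at equal depth. Each cell was thinned to 10000 UMIs, a depth that every cell reached. A *Wt1* UMI was found in 17.2% of the 337 E9.5 cells (95% exact interval 13.3 to 21.7) and an *Upk3b* UMI in 9.20% (6.34 to 12.8). Without thinning the shares were 30.3% and 17.8%. *Nkx2-3* was found in 57.9%, *Hlx* in 46.3%, *Foxf1* in 71.2%, *Hand1* in 58.5%, the desmosomal *Dsp* in 70.0% *Krt18* in 76.3%, *Krt8* in 68.5% and *Podxl* in 32.9%. Erythroid cells of the same stage, which should lack *Wt1*, *Upk3b* and keratins, gave the level of free RNA: *Wt1* was in 0 of 399 Erythroid cells (3 counts would be 0.752%, and the 95% exact upper limit is 0.920%) and *Upk3b* in 0.501%, at median depths of 22533 UMIs in Erythroid and 32300 in mesothelium-labelled cells. *Krt18* was in 6.77% of Erythroid cells. *Podxl* was in 26.8% of them, little below its share in mesothelium-labelled cells. It was in 8.53% of 1512 Limb mesoderm cells, so the Erythroid share does not give its level of free RNA. These intervals cover counting error only.

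**Figure D1:**
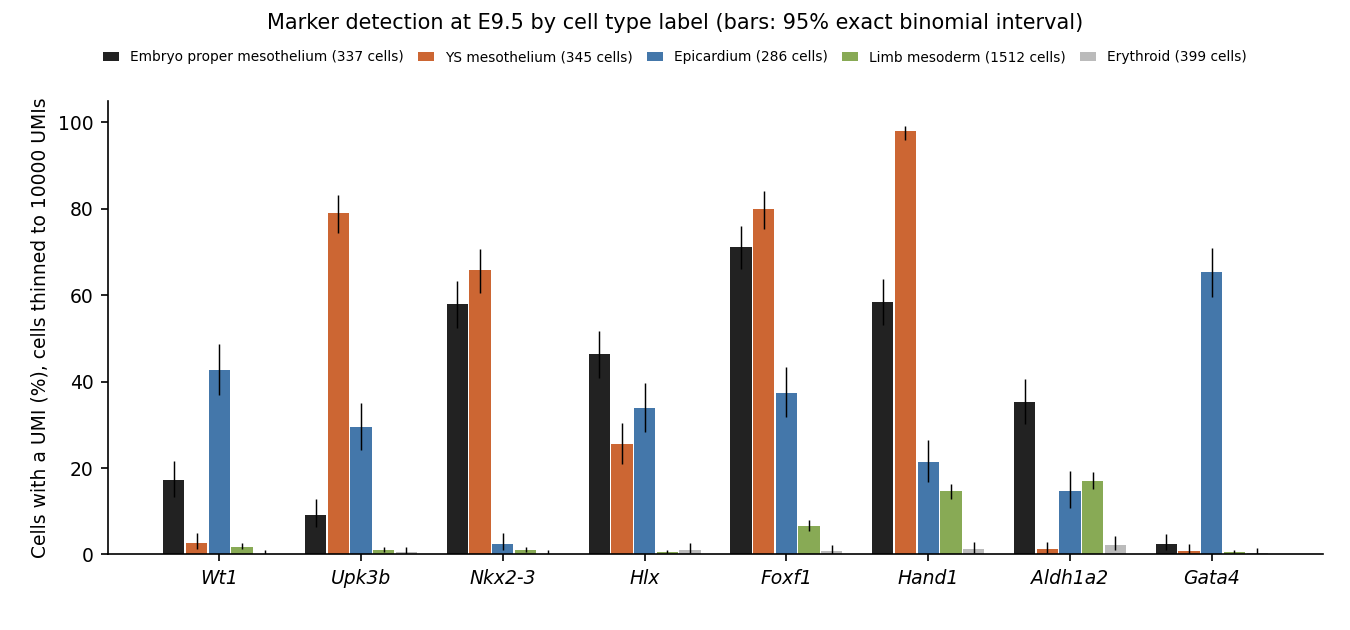
Share of E9.5 cells with a UMI (%, y axis) of 8 genes (x axis) in mesothelium-labelled cells and in 4 other labels, after thinning to 10000 UMIs per cell, with lines for 95% exact binomial intervals. *Wt1* was in 17.2% of mesothelium-labelled and 42.7% of Epicardium cells, *Upk3b* in 9.20% against 79.1% of YS mesothelium cells, and *Aldh1a2* in 35.3% against 1.16% of YS mesothelium cells.

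Some of these genes were shared with 2 other mesothelial or epicardial labels, chosen by name. YS mesothelium shared *Nkx2-3* (65.8% of 345 cells) and *Foxf1* (80.0%) but had *Hand1* in 98%, *Upk3b* in 79.1%, and *Aldh1a2*, which makes retinoic acid, in 1.16% against 35.3% in the mesothelium-labelled cells. Epicardium had *Wt1* in 42.7% of 286 cells, *Gata4* in 65.4% and *Tbx18* in 37.8%, where the mesothelium-labelled cells had 17.2%, 2.37% and 10.1%, and it had *Nkx2-3* in 2.45%. Limb mesoderm had *Foxf1* in 6.61% of 1512 cells and *Hlx* in 0.529%. These shares are descriptions, since the labels rest on the same RNA.

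Markers of other cell types were found at varied levels. In E9.5 libraries the summed levels were at most 26.6 CPM for 7 endoderm markers, 21.1 for 6 endothelial, 7.56 for 3 neural crest and 10.3 for 4 leukocyte markers. Across all E9.5 libraries the 5 epicardial markers summed to between 48.3 and 107, the 5 extra-embryonic mesoderm markers to between 355 and 433, the 6 kidney and gonad ridge markers to between 26.3 and 110.0, the 4 limb markers to between 13.95 and 69.4, the 6 cardiomyocyte markers to between 51.6 and 113 and the 4 neural markers to between 10.5 and 37.0. The 6 erythroid markers summed to between 230 and 825 in E9.5 WT libraries and to between 8.87 and 54.1 in E9.5 null libraries, without overlap. Almost all of it was embryonic haemoglobin (*Hbb-bh1*, *Hba-x* and *Hbb-y*), at 824, 252, 230 and 621 CPM in WT libraries A to D and 37.5, 8.87, 11.3 and 52.6 in null libraries. At E8.5 haemoglobin overlapped, at 1059 and 1030 in WT and 1500 and 225 in null libraries. Haemoglobin RNA thus moved with genotype at E9.5, and its part in the genotype results below was not tested.

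At E9.5 the labelled cells were not uniform, and marker detection changed along the label score. Whether single cells vary gradually or distinct kinds of cell are mixed was not tested. The label score, the fraction of the 25 nearest atlas cells that share the label, had a median of 0.76 at E9.5 (quartiles 0.56 and 0.92) and 0.68 at E8.5. *Wt1* was found in 37.5% of the 56 E9.5 cells with a score of 0.5 or below, in 27.8% of 90 up to 0.7, in 8.79% of 91 up to 0.9 and in 4.00% of 100 above 0.9. *Nkx2-3* ran the other way, at 16.1%, 45.6%, 67.0% and 84%. *Foxf1* went from 37.5% to 90.0%, *Hand1* from 16.1% to 86.0%, *Hlx* from 17.9% to 65.0% and *Dsp* from 33.9% to 89.0%. *Aldh1a2* went down from 66.1% to 19% and the intermediate mesoderm gene *Osr1* from 42.9% to 5%. *Upk3b* had no such gradient, at 12.5%, 11.1%, 5.49% and 9%. The E9.5 cells most surely placed under the label were thus the ones in which *Wt1* was found least often.

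**Figure D2:**
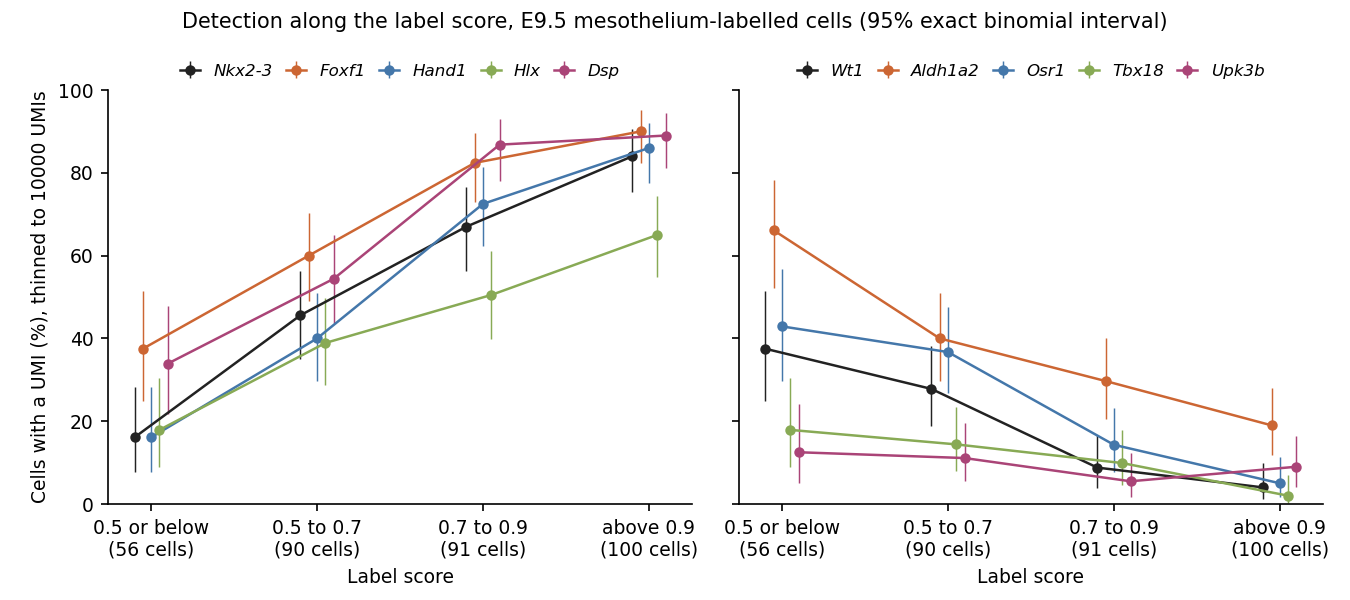
Share of E9.5 mesothelium-labelled cells with a UMI (%, y axis) in 4 bins of the label score (x axis), thinned to 10000 UMIs per cell, with lines for 95% exact binomial intervals; the left panel holds genes that were found more often at high scores, the right panel genes that were not. *Nkx2-3* went from 16.1% to 84% and *Wt1* from 37.5% to 4.00% across the bins.

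Cells with a score of 0.7 or below held *Wt1* more often than cells above it in all 8 E9.5 libraries, and *Nkx2-3* less often in all 8. In WT library A, for example, *Wt1* was in 46.2% of 26 lower-scoring and 5.26% of 19 higher-scoring cells, and *Nkx2-3* in 38.5% and 78.9%. Over the 337 cells, which share libraries, Spearman's rho between the score and the thinned count was -0.34 for *Wt1*, 0.50 for *Nkx2-3*, 0.52 for *Foxf1* and -0.03 for *Upk3b*. Over the 113 E8.5 cells rho was nearer 0 for *Wt1* (-0.09), *Nkx2-3* (0.20), *Foxf1* (0.24) and *Hlx* (0.02, against 0.285 at E9.5). It was further from 0 for *Upk3b* (0.07), *Krt18* (0.395 against 0.242 at E9.5) and *Tcf21* (-0.145 against 0.0151). Of the E9.5 cells 10 held both naming markers, 48 *Wt1* only, 21 *Upk3b* only and 258 neither. *Nkx2-3* was in 25.9% of cells with *Wt1* and 64.5% of cells without it, and *Foxf1* in 34.5% and 78.9%. Since score and counts come from the same transcriptomes, these gradients are descriptions and have no test.

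The share of mesothelium-labelled cells did not differ detectably between null and WT gates. At E9.5 the labelled cells made up 1.46%, 1.29%, 1.84% and 2.02% of WT libraries A to D and 0.924%, 1.95%, 1.69% and 1.88% of the null libraries, so the groups overlapped. The means were 1.65% ± 0.338 (SD, n = 4) in WT and 1.61% ± 0.470 (SD, n = 4) in null (exact permutation test, two-sided, p = 0.886). The edgeR quasi-likelihood test over 71 cell types gave a log2 difference of -0.06 (SE 0.41, Benjamini-Hochberg adjusted p = 0.997), and 1 type of the 71 was called (1.41%). At E8.5 the shares were 1.30% and 0.994% in WT and 0.939% and 0.524% in null libraries. The log2 difference was -0.57 (SE 0.47, adjusted p = 0.984), and 0 of 68 types were called. The exact permutation p of 0.333 is the smallest that 2 libraries against 2 allow, so the permutation test could not have reached the threshold here. The 0 cells at E7.5 allow upper exact limits of 0.170% to 1.02% per library.

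*Stat3* itself was barely measured. Its level was 4.12, 2.20, 3.98 and 3.07 CPM in E9.5 WT libraries A to D and 2.44, 2.77, 1.03 and 1.50 in the null libraries, resting on 1 to 7 UMIs per library. The groups overlapped, with means of 3.35 ± 0.893 (SD, n = 4) and 1.94 ± 0.811 (SD, n = 4) (exact permutation test, two-sided, p = 0.0857). After thinning to 10000 UMIs per cell the sign turned, with null 2.06 above WT (p = 0.143, exact permutation test). The 3′ end read by this chemistry lies downstream of the deleted exons, so the level is no check of the deletion. Of 25 JAK-STAT genes 10 passed the filter on low counts, and 0 were called in the test described next, which called 0.116% of all genes.

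Few genes separated null from WT mesothelium-labelled cells at E9.5. UMI counts were summed per library, and calls by edgeR's quasi-likelihood test needed both an adjusted p below 0.05 and an absolute log2 fold change above 1. The test called 10 of 8617 genes (0.116%), of which 3 stood higher (0.0348%) and 7 lower (0.0812%) in null cells, while 565 had an unadjusted p under 0.05 (6.56%). The balance of higher and lower genes was not stable, at 12 and 10 without the fold threshold, 16 and 17 without the filter on low counts and 6 and 5 without WT library A. The libraries of the genotypes did not overlap for 351 genes (4.07%). The median log2 fold change of all genes was -0.0009.

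*Cwc22*, a spliceosome factor (chromosome 2, 77881159 to 77946375, GRCm38), differed most firmly. It stood at 39.9, 43.0, 36.5 and 38.2 CPM in WT libraries A to D and at 205, 170, 202 and 194 in null libraries. Every null library was above every WT library (log2 fold change 2.30, SE 0.11, adjusted p = 2.20e-15). This gene is known to vary in copy number among mice, and its count may combine copies. *Zdbf2*, an imprinted zinc finger gene (chromosome 1, 63273265 to 63314576), stood at 80.4, 70.5, 67.7 and 73.7 in WT and at 162, 146, 196 and 142 in null libraries (1.13, SE 0.11, adjusted p = 9.61e-08). *Alcam*, a cell adhesion receptor (chromosome 16, 52248996 to 52454074), rose from 11, 5.51, 3.32 and 6.14 to 25.3, 16.6, 20.6 and 20.3 (1.64, SE 0.29, adjusted p = 0.00214). Its counts were low, 5 to 16 UMIs per WT and 20 to 31 per null library, and among cells with a label score of at least 0.6 its adjusted p was 0.367.

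*Grb10*, an imprinted adaptor that restrains growth (chromosome 11, 11930508 to 12038683), was lower in null cells by the widest margin. WT libraries held 428, 423, 479 and 405 CPM and null libraries 10.6, 52.1, 21.6 and 4.51 (log2 fold change -4.14, SE 0.47, adjusted p = 0.0359). The null libraries differed among themselves more than the WT libraries did, and the call was lost in 10 of 20 settings, among them without null library A, C or D or any 1 WT library, with adjusted p of up to 0.576 and the same sign in each. *Rprm*, a p53-induced inhibitor of the cell cycle (chromosome 2, 54084093 to 54085552), fell from 48.8, 30.9, 53.1 and 32.9 to 0.815, 2.22, 3.08 and 5.26 (-3.84, SE 0.32, adjusted p = 3.93e-09). *Akr1e1*, an aldo-keto reductase (chromosome 13, 4590750 to 4609174), fell from 13.1, 17.6, 32.5 and 14.9 to 1.63, 1.66, 4.11 and 0.752 (-3.30, SE 0.43, adjusted p = 3.62e-05).

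The other 4 lower genes were *Msrb2*, a mitochondrial methionine sulfoxide reductase (-1.99, adjusted p = 0.00717), *Pusl1*, a pseudouridine synthase-like gene (-1.79, adjusted p = 0.0256), *Mvb12b*, a subunit of the ESCRT-I sorting complex (-1.66, adjusted p = 0.000959), and the histone H4 gene *Hist1h4i* (-1.56, adjusted p = 3.26e-05), all by edgeR. *Hist1h4i* belongs to a multigene family and its counts are uncertain. *Pusl1* held at most 10 UMIs per null library and *Msrb2* at most 6. *Cwc22*, *Rprm* and *Zdbf2* were called in 20 of 20 settings, *Akr1e1* in 18 of 18 in which it was tested and *Mvb12b* in 19 of 19. These counts of settings include a limit of more than 5 cells per library and a limit to null cells with a tdTomato UMI. Neither setting changed the cells or libraries here, so both repeated the main fit. *Pusl1* was called in 10 of 18, being lost with DESeq2 and without any 1 null library or WT library C or D. *Msrb2* was called in 15 of 18, being lost with DESeq2 and without null library D or WT library A, and *Hist1h4i* was lost on thinned cells.

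**Figure D3:**
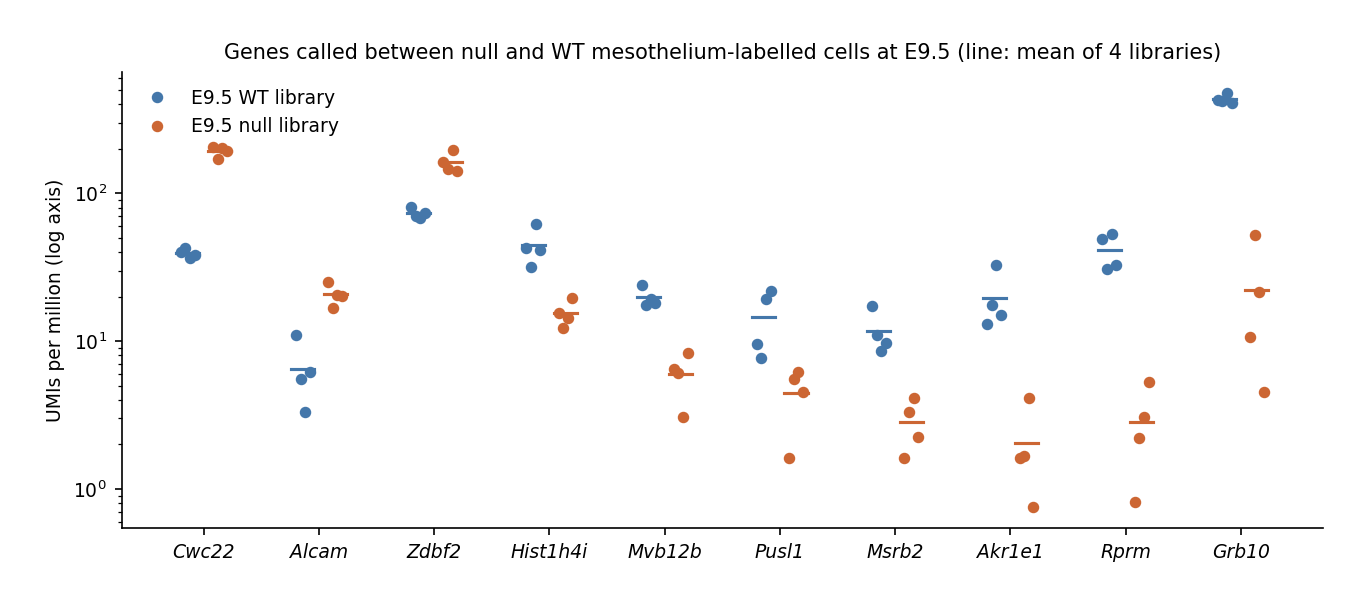
Level of the 10 genes called between null and WT mesothelium-labelled cells at E9.5 (CPM, log y axis), 1 point per library, 4 libraries per genotype, with a line at each mean. For every gene shown all null libraries lie on 1 side of all WT libraries, as with *Cwc22* at 170 to 205 against 36.5 to 43.0.

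The gene lists held few calls, as did all genes (0.116%). Of 35 mesothelial genes 22 were tested and 0 called, with a median log2 fold change of -0.05. *Wt1* had a log2 fold change of 0.23 (SE 0.49, adjusted p = 0.971) from 41.2, 25.3, 19.9 and 21.9 CPM in WT and 51.3, 42.1, 13.4 and 14.3 in null libraries, and *Upk3b* one of -0.63 (SE 0.80, adjusted p = 0.935). The thinned share of cells with *Wt1* was 20.4% ± 6.12 (SD, n = 4) in WT and 12.8% ± 7.91 (SD, n = 4) in null (exact permutation p = 0.200), and without thinning null was 5.11 percentage points above WT. For *Upk3b* the shares were 10.2% ± 9.73 (SD, n = 4) and 8.997% ± 5.56 (SD, n = 4) (exact permutation p = 0.829). None of the 12 epithelial-mesenchymal, 12 retinoic acid, 26 matrix, 13 BMP, 5 FGF, 9 Wnt, 6 hedgehog, 9 Hippo, 20 S phase, 19 glycolysis and hypoxia and 8 p53 target genes tested was called, with medians between -0.14 (hedgehog) and 0.12 (glycolysis and hypoxia).

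Single imprinted growth genes differed between null and WT cells. Of the 17 imprinted genes in the list, which leaves out *Zdbf2*, 1 was called (*Grb10*), and *Igf2*, a fetal growth factor, and *Dlk1*, a Notch-family ligand, had adjusted p under 0.05 with changes below the fold threshold, as against 22 of all 8617 genes with such an adjusted p. The list was chosen with earlier results of these data known, so these counts describe its members and do not test the list. *Igf2* stood at 375, 364, 330 and 409 CPM in WT and 572, 827, 616 and 671 in null libraries (0.87), and *Dlk1* at 408, 394, 349 and 331 against 565, 550, 490 and 475 (0.49). The imprinted RNA *H19* stood at 846, 834, 942 and 1169 in WT and at 1.63, 120, 22.6 and 328 in null libraries, without overlap but with an adjusted p of 0.572 (-2.95, SE 0.86) given the spread among null libraries. *Zfp979*, the 1 gene of 10 in a chromosome 4 zinc finger cluster that could be tested, had a log2 fold change of 1.89 (adjusted p = 0.0804). Of 20 G2/M genes 16 had negative values, with a median of -0.21 and 7 at an unadjusted p under 0.05 against 6.56% of all genes, and 0 passed adjustment.

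Sex-linked RNA differed between the E9.5 libraries. WT libraries B and C held *Xist*, the X inactivation RNA, at 648 and 721 CPM and 0 UMIs of 4 Y-linked genes, WT libraries A and D held 0 *Xist* UMIs, and all 4 null libraries held Y-linked RNA at 102 to 153. In null libraries A to D *Xist* stood at 0, 53.2, 30.8 and 1.50, so that the libraries of each genotype fell into 2 sets above and below 10 CPM. Haemoglobin was lower in the *Xist* set of each genotype as well. Whether a set is 1 embryo is not given by the labels. WT libraries A and D held the Y-linked RNA at 171 and 173 CPM. The paper states that its 2 E9.5 embryos were processed individually. On that count each WT set would be 1 embryo, while the null sets rest on the *Xist* and haemoglobin levels. With the set as a block 10 genes were called, 9 of them among the 10 above. With libraries summed within genotype and set, leaving 2 against 2, 14 were called (8 higher, 6 lower), 9 of them among the 10 above. *Grb10* was lost in both. Against WT libraries A and D alone 10 genes were called, 7 of them among the 10 above; *Alcam*, *Pusl1* and *Grb10* were not among them. The median depth of the labelled cells was 25316 to 41888 UMIs in WT and 30725 to 45978 in null libraries. The mitochondrial share was 1.65% ± 0.387 (SD, n = 4) in WT and 1.35% ± 0.283 (SD, n = 4) in null libraries (exact permutation p = 0.257). The mean atlas stage to which cells mapped was E9.13 in WT and E9.10 in null libraries (exact permutation p = 0.286). The mean label score was 0.731 in WT and 0.721 in null libraries (exact permutation p = 0.800). The part of these measures in the calls was not tested beyond the values given.

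The called genes mostly had the same sign in other mesoderm of the same libraries. *Cwc22* had log2 fold changes of 2.36 in YS mesothelium, 2.34 in Epicardium and 2.03 in Limb mesoderm, and *Zdbf2* 1.11, 0.75 and 1.099. *Grb10* had -5.77, -4.76 and -5.79. *Msrb2*, *Pusl1* and *Hist1h4i* had values between -2.34 and -1.06. *Mvb12b* had -1.26, -0.63 and -0.72, against -1.66 in mesothelium-labelled cells (adjusted p of the difference 0.925 to 1.00). *Alcam*, described next, had -0.28, -0.29 and 0.83. *Akr1e1* was less negative in the other labels (-1.21, -1.69 and -2.05), as was *Rprm* (-2.03 in Epicardium and -1.55 in Limb mesoderm), but the tests of the difference gave adjusted p of 0.851 to 1.00 for *Akr1e1* and 0.653 to 0.947 for *Rprm*.

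**Figure D4:**
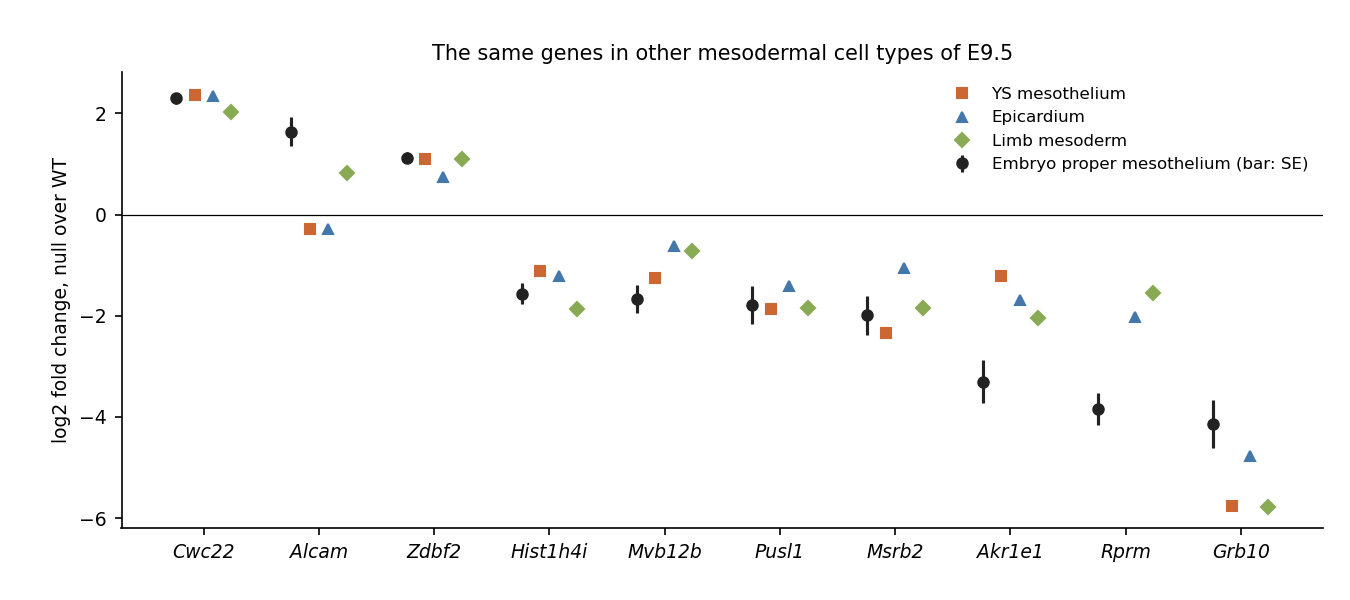
Log2 fold change of null over WT at E9.5 (y axis) for the 10 called genes (x axis) in mesothelium-labelled cells (black, line for the SE) and in YS mesothelium, Epicardium and Limb mesoderm of the same libraries (no error drawn). *Alcam* stood at 1.64 in mesothelium-labelled cells and at -0.28 and -0.29 in YS mesothelium and Epicardium.

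Interaction tests, with the library as a block, asked where the genotype difference itself differed between labels. Against YS mesothelium (3 libraries per genotype with over 15 cells of both) 1 of 9148 genes was called (0.0109%), namely *Alcam*. The difference was 1.79 (SE 0.31, adjusted p = 0.0222), and YS mesothelium held *Alcam* at 124, 127 and 95.2 CPM in WT libraries A, B and D and at 114, 82.9 and 86.9 in null libraries A, C and D, well above its level in mesothelium-labelled cells of either genotype. Against Epicardium (4 WT and 3 null libraries) 5 of 9110 were called (0.0549%), all with a lower null-over-WT difference in mesothelium-labelled cells. Among them were *Prc1* (-1.01, adjusted p = 0.00845), *Kpna2* (-1.64, adjusted p = 0.0158), *Ccnf* (-1.42, adjusted p = 0.0206) and *Plch1* (-3.06, adjusted p = 0.0425).

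*Prc1* acts in the mitotic spindle midzone, *Kpna2* in nuclear import and *Ccnf* is a G2 cyclin, while *Plch1* is a phospholipase C. *Prc1* stood at 166, 144, 108 and 76.7 CPM in null libraries A to D and at 158, 170, 151 and 189 in WT libraries of mesothelium-labelled cells, and at 210, 184 and 106 in null libraries A, C and D and 86.7, 128, 140 and 120 in WT libraries A to D of Epicardium. The groups overlapped in both labels, and the null values leaned down in the first and up in the second. Against Limb mesoderm (4 libraries per genotype) 2 of 10444 were called (0.0191%), *Igfbp3*, an IGF-binding protein (1.70, adjusted p = 0.0326), and *Bdnf*, a neurotrophin (-4.80, adjusted p = 0.0435). *Bdnf* rested on 7, 4, 6 and 7 UMIs in WT and 1, 0, 0 and 0 in null libraries of mesothelium-labelled cells.

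In the WT mesothelium-labelled cells more genes were called between stages than between genotypes at E9.5. The stages came from different embryos, which the paper pooled at E8.5 and processed individually at E9.5. Stage therefore cannot be told apart from embryo or pool, and the numbers of calls are not comparable. Between E8.5 (2 libraries) and E9.5 (4 libraries) 173 of 8542 genes were called (2.03%), 98 higher (1.15%) and 75 lower (0.878%) at E9.5. The libraries did not overlap for 2861 (33.5%). With 2 against 4 libraries, groups separate by chance more often than with 4 against 4. This share is therefore not comparable with the 4.07% between genotypes at E9.5. The median of all genes was 0.01. E8.5 WT library B was the shallowest, with a median of 15914 UMIs per labelled cell against 23782 in library A and 25316 to 41888 at E9.5. Settings without 1 of the 2 E8.5 libraries left 1 against 4, so the E9.5 libraries alone supplied the spread. Calls kept or lost in those settings are given below as descriptions. The counts of settings below also include a limit of more than 5 cells per library and a limit on null cells only. Neither changed any WT library, so both repeated the main fit. On cells thinned to equal depth 101 genes were called, 70 of them among the 173, and with E9.5 libraries summed within each *Xist* set 215, 170 of them among the 173.

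Many glycolytic and hypoxia-response genes fell. Of 20, 19 were tested, 18 had negative values, 16 of these passed adjustment and 9 were called, all lower at E9.5 (0.878% of all genes were called lower), with a median log2 fold change of -1. *Ldha*, which makes lactate, stood at 2352 and 2155 CPM in E8.5 WT libraries and at 822, 785, 974 and 944 in E9.5 WT libraries (-1.49, SE 0.09, adjusted p = 5.90e-13). The glucose transporter *Slc2a1* went from 117 and 266 to 44.7, 35.3, 41.8 and 48.7 (-2.23, adjusted p = 0.0126), the lactate transporter *Slc16a3* from 169 and 211 to 63.9, 38.6, 63.8 and 64.9 (-1.80, adjusted p = 1.09e-08), and *Bnip3*, a hypoxia-induced mitophagy receptor, from 101 and 121 to 37.1, 30.9, 36.5 and 26.3 (-1.90, adjusted p = 1.82e-08). *Tpi1*, *Pfkl*, *Pfkp*, *Aldoa* and *Pdk1* made up the 9. *Egln3*, a hypoxia-induced prolyl hydroxylase, was the 1 positive value (2.06, adjusted p = 0.0751). On thinned cells 6 of 16 were called lower. Without E8.5 WT library B, which left 1 E8.5 library, 18 of 20 had negative values. *Slc2a1* lost the call without E9.5 WT library C or D and with E9.5 libraries summed within each *Xist* set, and the other 3 with values here held it in all 16 settings. *Aldoa*, with a fold change at the threshold, was called in 9 of 16, *Pfkp* was lost without E8.5 WT library B and *Pdk1* on thinned cells. In 3 settings 1 member of the list was called higher. Beside these genes the 6 endothelial markers summed to between 48.1 and 68.6 CPM in E8.5 and between 8.81 and 15.4 in E9.5 WT libraries, and the 6 erythroid markers to between 1038 and 1061 and between 230 and 825, without overlap in either list. Their part in the stage differences was not tested.

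Several posterior *Hox* genes rose. These genes specify position along the body axis, with higher numbers more posterior, and they were grouped after their values were seen. All 10 tested genes of groups 9 to 13 had positive values and 6 were called (1.15% of all genes were called higher): *Hoxa9* (2.51), *Hoxc9* (1.27), *Hoxd9* (1.34), *Hoxa10* (4.72), *Hoxd10* (3.19) and *Hoxa11* (3.41). *Hoxa10* and *Hoxa11* each had 0 and 2 UMIs in E8.5 WT libraries A and B. This is below the floor of 3 UMIs used further on, so the size of their fold changes is uncertain. *Hoxb9*, *Hoxc10*, *Hoxd11* and *Hoxd13* did not pass, with adjusted p of 0.278 to 0.590. *Hoxa10* stood at 0 and 3.27 CPM in E8.5 and at 52.9, 40.8, 35.2 and 40.8 in E9.5 WT libraries (SE 0.56, adjusted p = 8.78e-07). Of groups 5 to 8, 0 of 10 were called. Of groups 1 to 4, 2 of 10 were called, both lower, among them *Hoxb1* (-2.20). Across the other settings that kept both E8.5 libraries, 6 or 7 genes of groups 9 to 13 were called, but *Hoxa11* was not called with DESeq2. Without E8.5 WT library A, 10 of 10 tested had positive values, and without B 9 of 10. Each of these 2 settings left 1 E8.5 library.

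**Figure D5:**
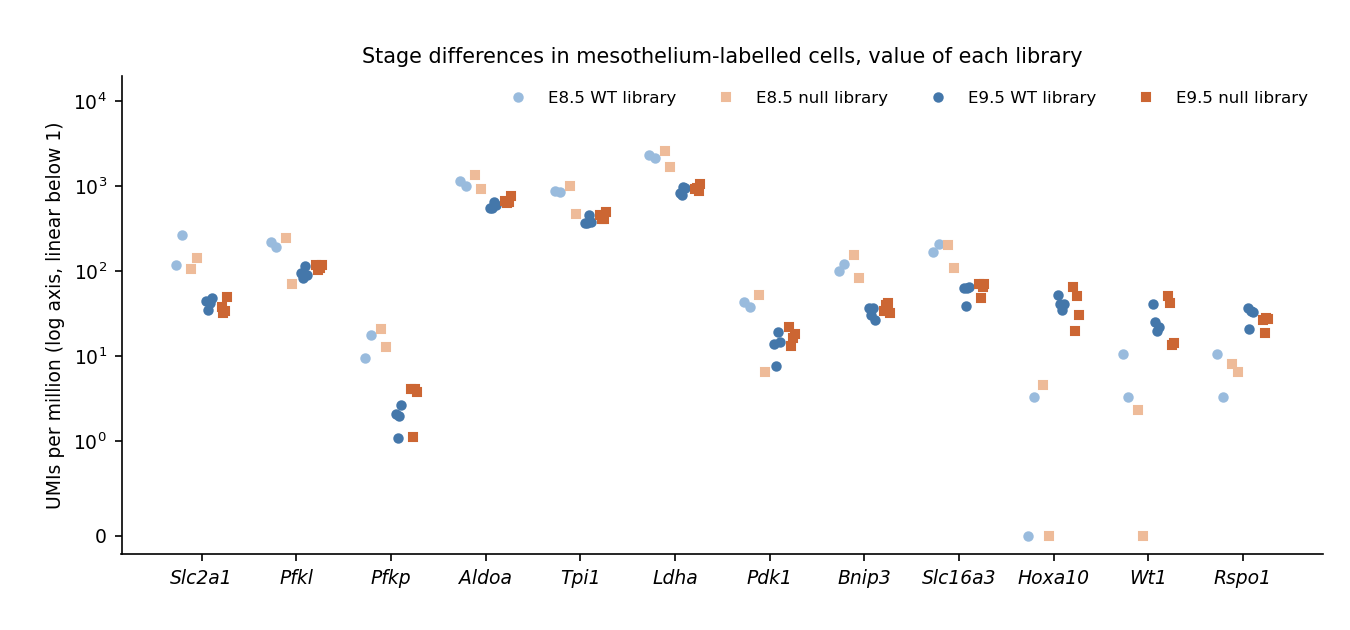
Level in each library of mesothelium-labelled cells (CPM, log y axis, linear below 1) for 9 glycolysis and hypoxia genes, *Hoxa10*, *Wt1* and *Rspo1*, with circles for WT and squares for null libraries, pale for E8.5 and dark for E9.5. *Ldha* stands at 2352 and 2155 in E8.5 WT and at 785 to 974 in E9.5 WT libraries, and *Hoxa10* at 0 and 3.27 against 35.2 to 52.9.

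The largest stage differences were in genes of varied roles. *Fuom*, *Col14a1*, *Bcl11a* and *Kcnmb2* had 0 UMIs in E8.5 WT cells and were at least 7.07-fold, 6.59-fold, 5.48-fold and 3.18-fold higher at E9.5, with 3 UMIs over the group as the floor. *Col14a1*, a fibril-associated collagen, stood at 8.25, 8.81, 25.2 and 10.97 CPM at E9.5. *Pmepa1*, a TGF-beta target, rose from 1.17 and 0 to 14.4, 11.02, 20.6 and 9.21. *Aplnr*, the apelin receptor, fell from 23.5 and 24.5 to 1.38, 1.102, 1.33 and 2.19 (-3.94, SE 0.50, adjusted p = 3.36e-06), and was called in 15 of 15 settings. The intermediate mesoderm factor *Lhx1* (-3.68), the semaphorin *Sema3e* (-4.38), the mitochondrial subunit *Cox4i2* (-3.37), cardiac troponin *Tnnt2* (-3.22), the caudal factor *Cdx2* (-3.19) and the immediate early gene *Fosb* (-2.83) were called lower too. *Tnnt2*, *Cdx2* and *Fosb* lost the call without E8.5 WT library B. *Col14a1*, *Kcnmb2* and *Bcl11a* lost it without either E8.5 library, *Col14a1* also with all stages in 1 fit, *Bcl11a* also without E9.5 WT library A or B, *Kcnmb2* also with DESeq2, *Pmepa1* with DESeq2 and without E8.5 WT library B, and *Lhx1* with DESeq2. *Fuom*, *Sema3e* and *Cox4i2* kept it in every setting in which they were tested. For *Sema3e* these were 9 settings. It rested on 8 and 8 UMIs in E8.5 and on 1, 0, 0 and 2 in E9.5 WT libraries, so the size of its fold change is uncertain.

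Of 23 mesothelial genes tested 3 were called, where 2.03% of all genes were. *Wt1* went from 10.6 and 3.27 CPM in E8.5 to 41.2, 25.3, 19.9 and 21.9 in E9.5 WT libraries (1.69, SE 0.46, adjusted p = 0.0317), and *Rspo1*, a Wnt agonist, from 10.6 and 3.27 to 36.4, 20.9, 33.9 and 33.3 (1.95, SE 0.39, adjusted p = 0.00191), and it was also the 1 call in the Wnt list. *Podxl*, an apical sialomucin, fell from 72.7 and 106 to 39.9, 48.5, 33.2 and 56.6 (-1.098, adjusted p = 0.00183). The *Wt1* call held in 9 of 15 settings. It was lost with DESeq2, with all stages in 1 fit, at a label score of at least 0.6, without E9.5 WT library B and without either E8.5 library. *Rspo1* lost the call on thinned cells and without E8.5 WT library B, and *Podxl* in these settings, at a label score of at least 0.6 and without E9.5 WT library C. *Krt18* stood at 501 and 730 against 201, 294, 244 and 322 (-1.34, adjusted p = 0.0514), and *Upk3b* did not pass (1.34, adjusted p = 0.752).

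In the remaining lists single members were called: *Crabp2* of the retinoic acid genes (1.18), *Dusp6* of the FGF genes (1.27), *Msx1* of the BMP genes (-1.47) and *Phlda2* of the imprinted genes (-2.65), where 2.03% of all genes were called. *Dusp6* was called in 8 of 16 settings and *Msx1* in 9 of 15, both being lost without either E8.5 library. *Crabp2* was lost on thinned cells and without E8.5 WT library A, and *Phlda2* at a label score of at least 0.6 and with all stages in 1 fit. The epithelial-mesenchymal, matrix, JAK-STAT, hedgehog, Hippo, S phase, G2/M and p53 lists had 0 called, with medians from -0.31 for G2/M, where 19 of 20 were negative and 4 passed adjustment, to 0.18 for matrix. Fibronectin (*Fn1*) fell below the fold threshold (-0.69, adjusted p = 0.00183).

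The remaining comparisons rested on E8.5 null library B with 6 labelled cells, below the limit of more than 15, and were fitted with a limit of more than 5. Null against WT at E8.5 gave 1 call among 6678 genes (0.015%), *Akr1e1*, with 0 UMIs in both null libraries and 30.5 and 29.4 CPM in WT, at least 10.2-fold higher in WT (adjusted p = 0.0138). With DESeq2 this call was lost and 0 genes were called, with 24 at an unadjusted p under 0.05 against 227 by edgeR. Of the genes called at E9.5, *Grb10* stood at 351 and 366 in WT and at 13.9 and 206 in null libraries at E8.5, and *Cwc22* at 73.9 and 121 against 125 and 103, so that *Cwc22* overlapped there. Null E9.5 against E8.5 gave 142 calls among 8415 genes (1.69%), 88 higher (1.05%) and 54 lower (0.642%), and with DESeq2 76 calls, 36 higher and 40 lower. Of the 20 glycolysis and hypoxia genes 7 were called lower there, and 18 of the 19 tested in both genotypes had negative values in both.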

How the data were processed

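Single-cell RNA-seq of sorted null and WT cells of chimeric embryos was deposited as a matrix of raw UMI counts of 29453 genes by 41832 cells, which the authors made with Cell Ranger on mm10 with a GRCm38 annotation plus tdTomato, keeping cells with over 10000 UMIs. The deposited cell table gave the mitochondrial percent, doublet calls (scds), the transferred label and its score, a fraction of nearest atlas cells. Library names matched no sample title, so libraries were grouped by the stage and sort gate in the cell table and not tied to embryo pools. Of 41214 distinct barcodes 614 occurred in more than 1 library, 0 of them among members.

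Counts were summed per library over members (155562 to 2279593 UMIs; over 15 cells required) and tested with edgeR 4.0.16 (filterByExpr, TMM, robust quasi-likelihood fit, Benjamini-Hochberg over all genes; 8163 genes left out, namely tdTomato, *Tsix*, *Xist*, genes of the Y chromosome and of haemoglobin, ribosomal proteins, the mitochondrial genome, and Gm and Rik models); SE is the absolute log2 fold change over the square root of F. DESeq2 1.42.0, other scaling, filters, thinning, label-score and leave-one-out settings were tried. On simulated counts the test was checked. Exact permutation tests (scipy 1.17.1) were run over libraries. Gene positions are GENCODE on GRCm38. Members and gene lists were chosen with earlier results of these data known. Named genes were *Stat3*, *Wt1* and *Upk3b*, the 10 largest rises and falls among called genes without overlap, and called or highest members of each list. Some genes in these lists and calls are not reported here. Replicate libraries differed beyond counting noise, so none was merged. Levels compare genes per UMI, not per length, as 3′ tags carry no length.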

Additional observations from a re-analysis of the deposited data

Results flagged for a closer look

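The mean label score of E9.5 WT library A, 0.675, lay apart from the other 3 WT libraries (highest 0.759). It was the 1 value so marked among 44 groups of library values. The E8.5 groups held 2 libraries each, in which no single value can stand apart from the rest. How often chance marks a value was not measured.

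The genotype difference of some genes differed between mesothelium-labelled cells and another label by the interaction test. It was 1.79 (log2) higher for *Alcam* than in YS mesothelium. Against Epicardium it was -1.01 for *Prc1*, -1.64 for *Kpna2*, -1.42 for *Ccnf* and -3.06 for *Plch1*. Against Limb mesoderm it was 1.70 for *Igfbp3* and -4.80 for *Bdnf*. The Epicardium and Limb mesoderm tests were added after the data were seen.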

How the results depend on the processing

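No paired analysis was possible because library names carry neither replicate number nor embryo pool. A block by *Xist* set, seen in the data and not in the labels, gave 10 calls at E9.5, and summing within the sets gave 14 there and 215 between stages. For E9.5 null against WT, 10 genes were called, 33 without the filter on low counts, 22 without the fold threshold, 4 on thinned cells and 8 to 13 leaving out 1 library. For WT E9.5 against E8.5, 173 became 115 with DESeq2 (56 higher, 59 lower), 260 without the filter, 443 without the fold threshold (154 higher, 289 lower), 101 on thinned cells and 98 to 219 leaving out 1 library. With E8.5 null library B (6 cells), E8.5 null against WT gave 1 call and 0 with DESeq2 (24 at an unadjusted p under 0.05; 227 with edgeR), and null E9.5 against E8.5 gave 142 and 76. The interaction calls without the filter were 11 (YS mesothelium), 20 (Epicardium) and 4 (Limb mesoderm), and 8 for Epicardium without the fold threshold. The causes were not tested. Uncalled differences changed sign for the *Stat3* level on thinned cells (2.06), the *Wt1* share unthinned (5.11), and, leaving out 1 library, the E9.5 abundance (-0.17 to 0.14, above 0 without null A) and the *Upk3b* share (-3.96 to 3.49). Lateral plate mesoderm had too few libraries for an interaction test, and E8.5 null comparisons at over 15 cells were not run. At 4 against 4 libraries the smallest exact p is 0.0286.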
